A study of Mus musculus with 6 samples.

Results

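The AP-1 and Batf transcription factors studied here are the 10 genes Fos, Fosb, Fosl1, Fosl2, Jun, Junb, Jund, Batf, Batf2 and Batf3. They were taken by gene symbol from the platform annotation, which gives them 14 of the 45037 probe sets that are not Affymetrix controls, and they make up 10 of the 18193 genes tested. Fosl1, Fosl2, Jun and Jund have 2 probe sets each and the other 6 genes have 1. A gene's level is that of its probe set with the higher mean over all arrays.

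AP-1 is a family of dimeric DNA-binding factors built from basic leucine zipper (bZIP) proteins. Fos proteins cannot pair with themselves and bind DNA as partners of Jun proteins, whereas Jun proteins can also pair with each other. Batf proteins pair with Jun proteins as well, lack the long activation domains of Fos, and act at composite DNA sites together with the interferon regulatory factors Irf4 and Irf8. Fos, Fosb, Jun and Junb are immediate early genes, switched on within minutes of a growth factor, cytokine or stress signal. In myeloid cells AP-1 takes part in macrophage differentiation and inflammatory gene expression, and Batf3 is needed for the cross-presenting type of dendritic cell.

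The cells were bone marrow cells of healthy C57BL/6 mice, transfected with the GeneSilencer reagent. The control group of 3 arrays received a control oligonucleotide and the mimic group of 3 arrays received a synthetic mimic of miR-142-3p, which haematopoietic cells express strongly, each at 100 nM. In both groups GM-CSF and IL-6 were added after 5 h and the culture ran for 4 days, a condition that yields suppressive myeloid cells (MDSCs), known for damping T cell responses. RNA was hybridised to Affymetrix MOE430 2.0 arrays, 1 sample an array, and the comparison asks which transcripts differ when the microRNA is raised while these cells form. The labels do not give the age of the mice, the sequence of the control oligonucleotide, or whether a group's samples were independent cultures or mice. The p-values therefore reflect no more than the scatter among these samples, which could be technical, and precision is limited by having 3 arrays a group.

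Levels are deposited log2 values, given for single arrays or as mean ± SD over 3 arrays. Differences are log2 fold changes, mimic minus control, with ± SE. A gene is said to rise or fall where limma's adjusted p, by Benjamini-Hochberg over the 18193 genes, was under 0.05. The number of genes that passed was 503 (2.76% of those tested, 1.17% higher and 1.59% lower with the mimic), and in 22.2% of genes the groups did not overlap, meaning that every mimic array lay above, or every one below, all control arrays. Of 12 genes listed as markers of the suppressor cell culture 9 were measured, of which 1 fell and 0 rose (2 lower and 1 higher at an unadjusted p under 0.05, limma). Itgam, which encodes the myeloid surface protein CD11b, fell from 6.60 ± 0.33 to 5.41 ± 0.15 (log2 fold change -1.19 ± 0.17, limma adjusted p = 0.017). Arg1, the arginase gene used as a marker of MDSC function, averaged 3.31 ± 0.98 on the control arrays and 4.65 ± 0.12 on the mimic arrays, which lay apart, and did not pass (limma, adjusted p = 0.148). The granulocyte and monocyte genes S100a8 and S100a9 stood at 11.85 ± 0.02 and 12.21 ± 0.04 in control and at 11.96 ± 0.04 and 12.25 ± 0.03 with the mimic. S100a9 gave the highest value on each of the 6 arrays, and whether values this high can still show a difference was not tested. Nos2, another marker of the culture, lay at the floor of the arrays, at 0.62 ± 0.05 and 0.44 ± 0.08. Ly6c1, Ly6c2 and Ly6g were not analysed here. In bulk RNA, fewer cells of a type and less RNA per cell cannot be told apart.

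The microRNA is shown because the comparison rests on it. The DNA upstream of 4 of the genes is shown because Jun fell. Junb, Jund and Fos, which did not pass, are set beside it. All are from RefSeq with build GRCm38.p6. The mature microRNA of the mimic's name comes from chr11:87756903-87756925 on the + strand and is printed with its seed, bases 2 to 8, in capitals.
mmu-miR-142a-3p: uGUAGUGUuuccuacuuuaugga
The table of promoters held 8 of the 10 genes, all but Fosl1 and Batf2. The 250 bases before the listed start follow for Jun, which fell, for Junb and Jund, whose arrays separated in the same direction, and for Fos, whose groups overlapped. Capitals mark matches to the motifs described after them.
Jun (chr4:95052223-95052472, - strand): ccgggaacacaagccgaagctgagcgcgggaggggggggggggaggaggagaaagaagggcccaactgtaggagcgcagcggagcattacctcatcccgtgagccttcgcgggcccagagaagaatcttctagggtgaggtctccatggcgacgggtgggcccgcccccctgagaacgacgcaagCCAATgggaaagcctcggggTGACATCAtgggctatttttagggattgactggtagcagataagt
Junb (chr8:84978749-84978998, - strand): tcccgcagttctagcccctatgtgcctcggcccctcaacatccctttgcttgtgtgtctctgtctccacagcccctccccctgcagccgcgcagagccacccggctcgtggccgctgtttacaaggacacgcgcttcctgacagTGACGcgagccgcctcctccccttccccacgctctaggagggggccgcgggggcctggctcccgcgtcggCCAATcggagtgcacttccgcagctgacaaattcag
Jund (chr8:70697489-70697738, + strand): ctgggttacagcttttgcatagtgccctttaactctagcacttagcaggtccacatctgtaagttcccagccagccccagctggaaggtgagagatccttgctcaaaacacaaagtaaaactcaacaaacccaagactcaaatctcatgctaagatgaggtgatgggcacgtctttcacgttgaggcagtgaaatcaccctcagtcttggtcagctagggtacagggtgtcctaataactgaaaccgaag
Fos (chr12:85473640-85473889, + strand): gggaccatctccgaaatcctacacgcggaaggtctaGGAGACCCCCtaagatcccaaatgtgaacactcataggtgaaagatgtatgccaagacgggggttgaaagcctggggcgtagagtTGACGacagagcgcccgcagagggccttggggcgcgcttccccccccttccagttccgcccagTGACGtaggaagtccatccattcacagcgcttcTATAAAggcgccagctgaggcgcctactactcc
Letters were searched on both strands in the same 250 bases of 32851 promoters. The sequence TGACATCA, the variant of the cyclic AMP response element (CRE) through which Jun protein is known to bind its own gene, was in the Jun promoter 45 to 38 bases before the start and in none of the other 7 promoters of these genes, against 2.93% of all promoters. The AP-1 site TGANTCA (6.75% of all promoters) and the full CRE, TGACGTCA (1.55%), were in none of the 8. The CRE core TGACG, which the full CRE contains, was in Fos, Fosb, Junb and Batf and in 17.8% of all promoters. The TATA box letters TATAAA (12.4%) were in Fos, CCAAT (33.8%) was in Jun and Junb, and an NF-kB site, searched by its consensus, was in Fos, Fosb and Fosl2 (3.9%). The CArG box, where serum response factor binds, was in none of the 8 (1.47%). These letters describe the window only, and the known serum response element of Fos lies further upstream than it.

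Jun, through 1 of its 2 probe sets, was the member that fell with the mimic, Batf2 was the member with a higher mean, and the other 8 had lower means that did not pass. Thus 1 of 10 members fell and 0 rose at the adjusted threshold, against 1.59% and 1.17% of all genes. At an unadjusted p under 0.05 (limma) 5 members were lower (Jun, Junb, Jund, Batf and Batf3) and 1 was higher (Batf2), against 9.06% and 7.99% of all genes. The groups did not overlap in 6 members that were lower with the mimic (Fosl1, Fosl2, Jun, Junb, Jund and Batf3), against 11.1% of all genes, and in 1 that was higher (Batf2), against 11.0%. The median log2 fold change of the 10 was -0.45, against 0.01 for all genes tested. A lower mean with the mimic was found in 9 of the 10, and in 48.0% of all genes. Shares over all genes, here and below, include 6766 genes with a mean below 1, where 0 of the members lay. With only genes of a mean log2 of at least 3 tested, 708 of 7662 passed (408 lower and 300 higher, limma). In that fit 1 of the 8 members left fell and 0 rose. There 2159 genes had an unadjusted p under 0.05 (limma), with 5 members lower and 1 higher among them.

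**Figure D1:**
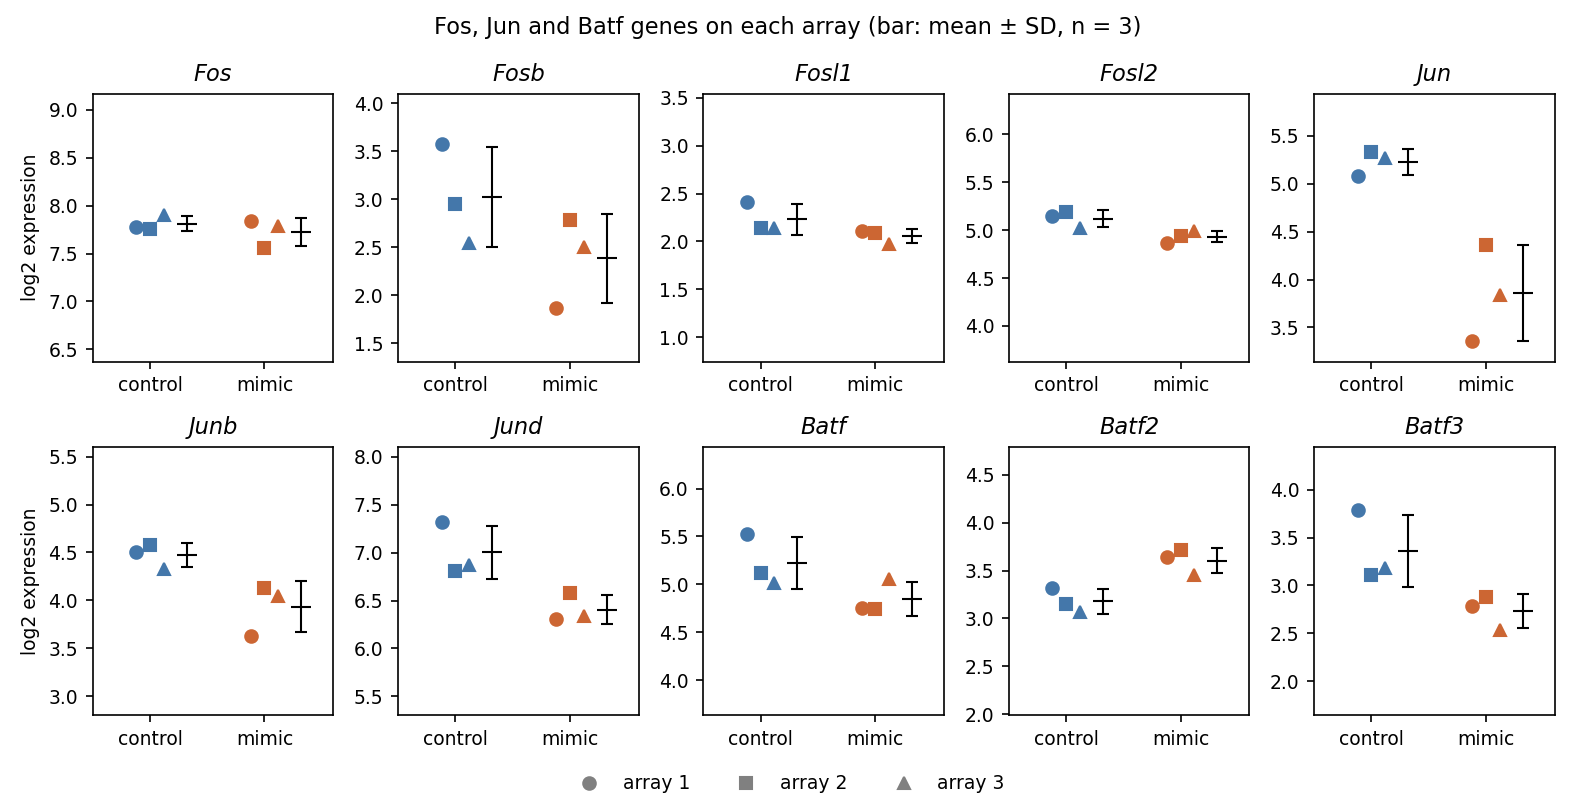
Log2 expression of each of the 10 genes (vertical axis, every panel spanning the same range) on the control and mimic arrays, with array numbers as symbols and mean ± SD over 3 arrays beside them. Jun shows the widest gap between the groups, from a lowest control value of 5.07 to a highest mimic value of 4.36, while the Fos groups overlap.

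Among the Jun proteins, which can form AP-1 with any of the other members, Jun itself had the largest difference and was the 1 that passed. Jun (Entrez gene 16476) stood at 5.07, 5.33 and 5.27 on control arrays 1, 2 and 3 and at 3.36, 4.36 and 3.84 on mimic arrays 1, 2 and 3. Every mimic array lay below every control array, and the mimic arrays were further apart from each other than the controls were. The fall from 5.23 ± 0.13 to 3.86 ± 0.50 over 3 arrays was 2.59-fold, with a log2 fold change of -1.37 ± 0.23 (95% interval -1.90 to -0.84, limma adjusted p = 0.0261). Leaving out mimic array 2 kept the call (-1.62, limma adjusted p = 0.042), and leaving out control array 1, 2 or 3 or mimic array 1 or 3 ended it (adjusted p = 0.0735, 0.124, 0.0724, 0.097 and 0.119). With control array 2, mimic array 1 or mimic array 3 omitted, 0 of the 18193 genes passed (limma), and 2564, 2343 and 2746 had an unadjusted p under 0.05.

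The 2 probe sets of Jun did not show the same difference. The dimmer one read 3.79, 4.08 and 3.95 on control arrays 1, 2 and 3 and 3.62, 4.19 and 3.68 on mimic arrays 1, 2 and 3. Its groups overlapped, and in the fit of all probe sets its log2 fold change was -0.11 ± 0.16 (limma, adjusted p = 0.835), against -1.37 ± 0.23 for the brighter one (adjusted p = 0.0533). In that fit 0.897% of probe sets passed, and none of the 14. Of those, 5 were lower and 1 higher at an unadjusted p under 0.05 (limma). No share of all probe sets at that unadjusted p is given for comparison, and the 0.897% holds for the adjusted threshold only. The brighter probe set exceeded the dimmer by 1.28, 1.25 and 1.32 on control arrays 1, 2 and 3. With the mimic the same difference within an array was -0.26, 0.18 and 0.17. These groups did not overlap, which shows unequal change of the probe sets and not which of them is nearer to the transcript. The two-sided exact permutation p of 0.1 is the smallest that 3 against 3 arrays allow. With both probe sets averaged, the log2 fold change of Jun was -0.74 ± 0.19 and missed the threshold (limma, adjusted p = 0.0866). Which transcript regions the probe sets read was not analysed here.

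**Figure D2:**
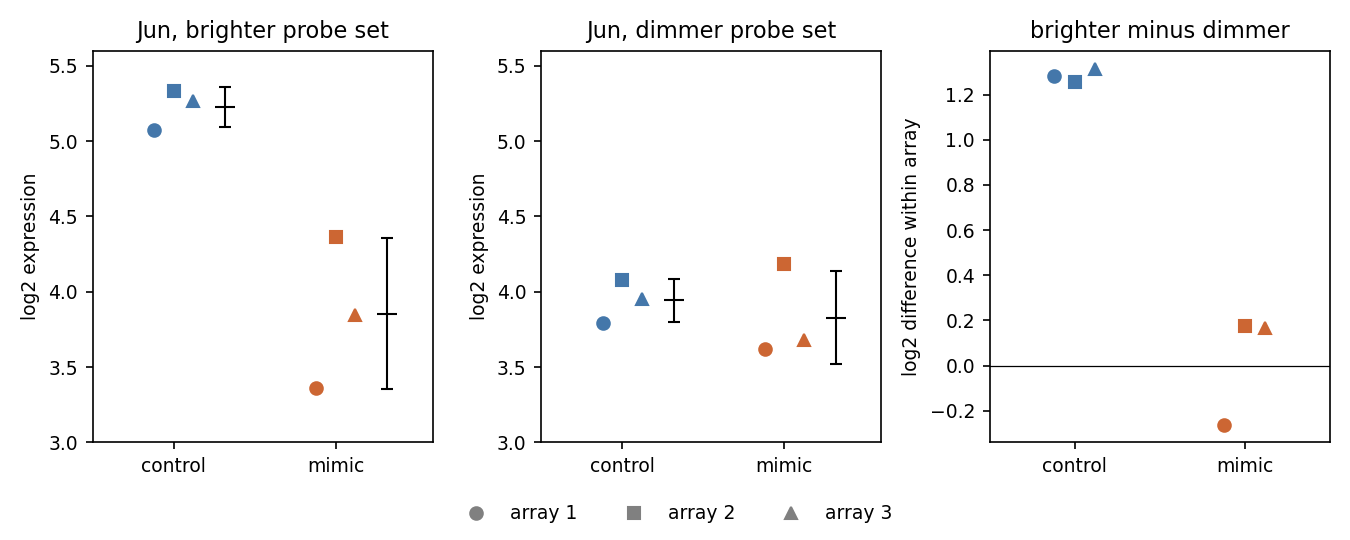
Log2 expression on each array of the brighter and the dimmer probe set of Jun, and the difference between them within each array, with mean ± SD over 3 arrays in the first 2 panels. The difference is near 1.28 on all control arrays and between -0.26 and 0.18 on the mimic arrays.

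Junb, whose protein binds DNA like Jun but is a weaker activator and can restrain it, stood at 4.50, 4.57 and 4.33 on control arrays 1, 2 and 3. On mimic arrays 1, 2 and 3 it stood at 3.63, 4.13 and 4.04. All mimic arrays lay below the controls, mimic array 1 the furthest. Its log2 fold change was -0.53 ± 0.15 (95% interval -0.87 to -0.19) and missed the threshold (limma, adjusted p = 0.112). Jund, a Jun gene that many resting cells express steadily, stood at 7.32, 6.81 and 6.87 in control and at 6.30, 6.58 and 6.34 with the mimic. The groups were again apart, with control array 1 above the other controls, and the log2 fold change of -0.60 ± 0.15 (95% interval -0.95 to -0.24) missed the threshold (limma, adjusted p = 0.0963). With only genes of a mean log2 of at least 5 tested, Jund fell by the same amount (limma, adjusted p = 0.0358). Its other probe set lay at the floor, at 0.55 ± 0.22 in control and 0.51 ± 0.14 with the mimic, where a difference could not be read, and with both averaged the log2 fold change was -0.32 (limma, adjusted p = 0.215).

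The Fos genes code for the obligate partners of Jun. Fos itself stood at 7.78, 7.75 and 7.90 on control arrays 1, 2 and 3 and at 7.84, 7.56 and 7.78 on mimic arrays 1, 2 and 3. The groups overlapped, and the mean moved by less than the spread within the mimic group. Its log2 fold change was -0.08 ± 0.11 (limma, adjusted p = 0.765), with a 95% interval from -0.33 to 0.17, so that a fall of the size seen for Jun lies outside the interval. Fosb, which like Fos is induced early and carries an activation domain, ranged from 2.54 to 3.58 in control and from 1.87 to 2.78 with the mimic. It had the widest spread among the Fos genes, and its log2 fold change of -0.64 ± 0.30 did not pass (limma, adjusted p = 0.34). Leaving out control array 1 brought it to -0.36, and leaving out mimic array 1 brought it to -0.38.

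Fosl1 and Fosl2 encode Fra-1 and Fra-2, Fos proteins that lack the strong activation domain and tend to appear later after a signal. Fosl2 stood at 5.15, 5.18 and 5.02 in control and at 4.87, 4.94 and 4.99 with the mimic, which separated the groups by a narrow margin. Its log2 fold change was -0.18 ± 0.09 (limma, adjusted p = 0.377), and its dimmer probe set went the other way, at 1.81 ± 0.10 in control and 1.98 ± 0.18 with the mimic. With both averaged the log2 fold change was -0.0089 (limma, adjusted p = 0.978). Fosl1 was dim, with 2.23 ± 0.16 in the controls and 2.06 ± 0.07 in the mimic group (log2 fold change -0.17 ± 0.11, limma adjusted p = 0.496). Without control array 1, the highest control, it was -0.08, and with array weights -0.09. Its second probe set lay near the floor, at 0.97 ± 0.09 and 0.88 ± 0.07.

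**Figure D3:**
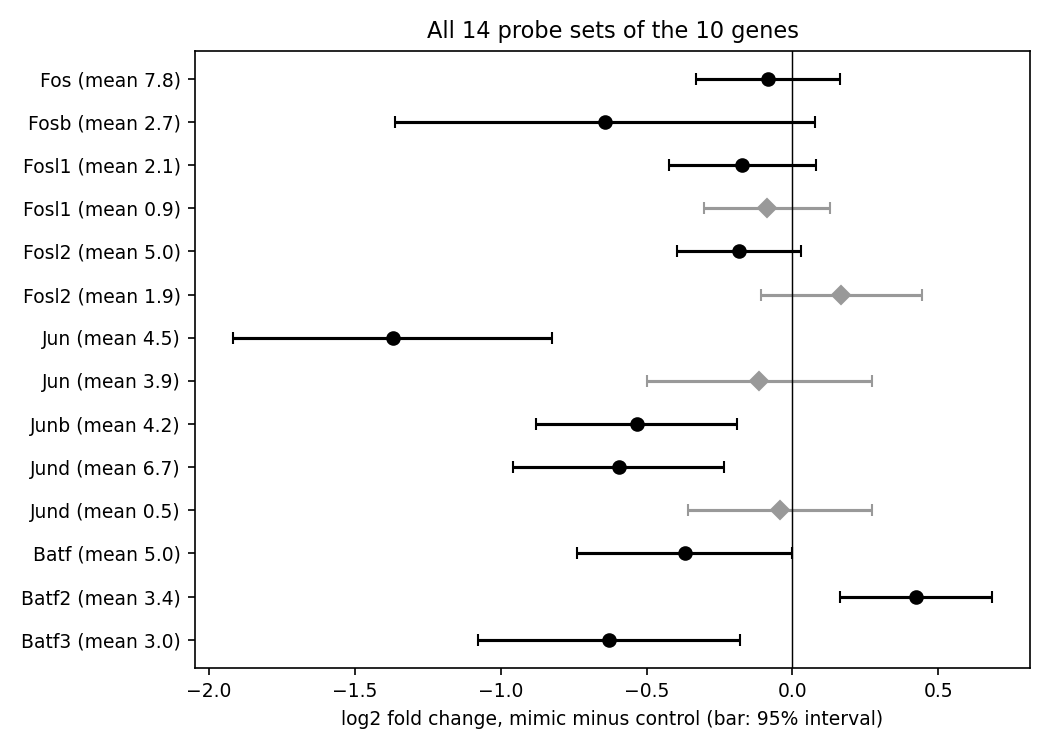
Log2 fold change, mimic minus control, with its 95% interval from the fit of all probe sets, for the 14 probe sets of the 10 genes; black circles are the probe sets that stand for a gene, grey diamonds the dimmer ones, and the mean log2 over all arrays is in brackets. The intervals of the brighter Jun probe set, Junb, the brighter Jund probe set, Batf3 and, with its upper end at almost 0, Batf lie below 0 and that of Batf2 lies above 0, before any adjustment for the number of tests.

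The Batf genes code for short bZIP proteins that replace Fos as partners of Jun. Batf3, the factor of cross-presenting dendritic cells, stood at 3.79, 3.11 and 3.19 on control arrays 1, 2 and 3. On mimic arrays 1, 2 and 3 it stood at 2.78, 2.88 and 2.53, all below the controls, of which control array 1 was the highest. Its log2 fold change was -0.63 ± 0.19 (95% interval -1.07 to -0.19) and missed the threshold (limma, adjusted p = 0.141). Without control array 1 it was -0.41 (adjusted p = 0.182). Batf, known for its part in effector T cells and B cells, stood at 5.53, 5.12 and 5.02 in control and at 4.75, 4.74 and 5.06 with the mimic. Mimic array 3 lay within the control range, and the log2 fold change of -0.37 ± 0.16 did not pass (limma, adjusted p = 0.286). Without control array 1 it was -0.22.

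Batf2, an interferon-inducible member expressed in macrophages, differed in the other direction. It stood at 3.32, 3.15 and 3.07 on control arrays 1, 2 and 3 and at 3.64, 3.71 and 3.45 on mimic arrays 1, 2 and 3. Every mimic array was above every control array, by a small margin. The log2 fold change was 0.42 ± 0.11 (95% interval 0.16 to 0.68) and missed the threshold (limma, adjusted p = 0.103). With array weights it passed (0.49, adjusted p = 0.0212).

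Control array 1 was the highest control in 6 members, namely Fosb, Fosl1, Jund, Batf, Batf2 and Batf3. The summed level of dendritic cell markers was also highest there. Of 12 such markers measured 7 fell and 0 rose (9 lower and 0 higher at an unadjusted p under 0.05, limma). Their summed linear level was 1573 to 3461 on the control arrays and 684 to 710 on the mimic arrays. Bright genes weigh most in this sum, and the brightest was Cd74, at 10.24 ± 0.51 in control and 8.58 ± 0.03 with the mimic. Cd209a and Zbtb46 lay near the floor, at 1.01 ± 0.27 and 1.32 ± 0.41 in control and at 0.62 ± 0.04 and 0.83 ± 0.35 with the mimic. The part of the dendritic cell markers in the lower means of Batf3 and Batf was not tested. Markers of neutrophil precursors ran the other way, with 2 of 8 rising (6 higher and 0 lower at an unadjusted p under 0.05, limma). Their summed linear level was 3742 to 6313 in control and 8289 to 8515 with the mimic. Of the 11 macrophage markers 2 rose and 1 fell (3 higher and 4 lower at that p). Their summed linear level was 1553 to 1588 in control and 1439 to 1525 with the mimic. Of 7 mast cell and basophil markers 2 rose (5 higher at that p), and the groups were apart in the higher direction in 7. Of 5 eosinophil markers 1 rose (5 higher at that p), and the groups were apart in the higher direction in 5, with Il5ra at the floor. Of 6 B cell markers 1 fell (3 lower at that p). For T and NK cells 0 of 7 passed (1 higher at that p), and for erythroid cells 0 of 4 (1 higher at that p). Ebf1, among the lower B cell genes, and Hba-a1, the higher erythroid gene, lay at the floor, with means over all arrays below 1. So did Vpreb1, Cd3g, Ncr1 and Alas2 of these lists. The part of any of these markers in the values of the members was not tested.

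Other genes of AP-1 biology were read from the same fit in 6 lists. Other bZIP genes, which can pair with Fos or Jun proteins or compete for related sites, went both ways. Of 17 measured 1 fell and 0 rose (5 lower and 5 higher at an unadjusted p under 0.05, limma), and the median log2 fold change was -0.05. The gene that fell was Maff, a small Maf protein without an activation domain, at 3.08 ± 0.42 in control and 1.74 ± 0.14 with the mimic (log2 fold change -1.33 ± 0.20, limma adjusted p = 0.0192). Maf, a large Maf factor of macrophages, stood at 3.43, 4.93 and 5.26 on control arrays 1, 2 and 3 and averaged 6.18 ± 0.16 with the mimic without passing (limma, adjusted p = 0.0931); it was chosen after its values were seen. Jdp2, whose protein represses AP-1, is the 1 protein-coding gene between Fos and Batf in the RefSeq gene order of chromosome 12. It averaged 5.50 ± 0.10 in the controls against 5.78 ± 0.16 in the mimic group, which missed the threshold (limma, adjusted p = 0.265), so none of these 3 neighbours passed.

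Kinases and factors upstream of AP-1, among them the MAP kinase cascade and the Ets and Mef2 factors that act at the Fos and Jun promoters, were mostly close to 0. Of 21 measured 2 fell and 0 rose (4 lower and 2 higher at an unadjusted p under 0.05, limma; median log2 fold change -0.07). Elk3, an Ets factor that binds with serum response factor, fell from 4.46 ± 0.13 to 3.92 ± 0.12. Mapkapk2, the kinase gene downstream of p38, fell from 6.88 ± 0.09 to 6.38 ± 0.11. Both lay close to the threshold (adjusted p = 0.0481 and 0.048 by limma), and neither passed with any single array left out. Mapk8, which encodes the Jun kinase JNK1, moved by 0.32 (log2) without passing (adjusted p = 0.125); it was chosen after its values were seen.

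Immediate early genes that are induced alongside Fos and Jun were mostly lower. Of 25 measured 6 fell and 0 rose (14 lower and 1 higher at an unadjusted p under 0.05, limma), 22 had a lower mean, and the groups were apart in the lower direction in 15, against 11.1% of all genes. Their median log2 fold change was -0.39. Nr4a3, an orphan nuclear receptor gene, fell from 3.75 ± 0.73 to 1.54 ± 0.18 (log2 fold change -2.21 ± 0.32, limma adjusted p = 0.0174). Egr1, a zinc finger factor driven by the same serum response factor as Fos, read 7.67, 7.43 and 7.32 on control arrays 1, 2 and 3 and 6.50, 6.57 and 6.40 on mimic arrays 1, 2 and 3. These groups were well apart, and Egr1 was 1.98-fold lower (limma, adjusted p = 0.011) while Fos did not pass. Phlda1 (-1.01 ± 0.12) and the kinase gene Plk3 (-0.82 ± 0.12) fell as well. The number of these genes that fell ranged from 0 to 6 with single arrays left out.

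Genes commonly listed as AP-1 targets were lower in 15 of 19 means (median log2 fold change -0.48), of which 3 fell and 0 rose (12 lower and 1 higher at an unadjusted p under 0.05, limma). The chemokine gene Cxcl2 fell from 7.82 ± 0.09 to 6.18 ± 0.23, the protease inhibitor gene Timp1 from 5.99 ± 0.48 to 4.43 ± 0.29, and the cytokine gene Il1b from 7.11 ± 0.35 to 6.01 ± 0.15 (adjusted p = 0.00673, 0.0218 and 0.0231 by limma). Mmp13, the collagenase gene with a well-known AP-1 site, went the other way without passing, at 7.92 ± 0.70 in control against 9.20 ± 0.03 with the mimic (adjusted p = 0.0769); it was chosen after its values were seen. Many of these genes also answer to NF-kB, and whether Jun acts on them here was not tested.

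Genes listed as partners of Batf or as genes of the Batf3-dependent dendritic cell were lower in 8 of 12 means. Zbtb46, Flt3 and Clec10a, which also stand in the general dendritic marker list, are among them, so the counts do not describe Batf3-dependent dendritic cells alone. Of the 12 measured genes of the list 2 fell and 1 rose (7 lower and 1 higher at an unadjusted p under 0.05, limma). The groups were apart in the lower direction in 7 and in the higher in 1, and the median log2 fold change was -0.37. Irf4, the partner of Batf at composite sites, fell from 5.58 ± 0.48 to 4.40 ± 0.07 (log2 fold change -1.17 ± 0.22, limma adjusted p = 0.0344). Its values were 6.11, 5.46 and 5.17 on control arrays 1, 2 and 3, so control array 1 was again the highest. Naaa, a lysosomal amidase gene enriched in these dendritic cells, fell by 0.62 on the log2 scale (adjusted p = 0.0363). Tlr3, a receptor for double-stranded RNA that cross-presenting dendritic cells carry and interferon induces, rose from 2.28 ± 0.17 to 3.51 ± 0.12 (adjusted p = 0.00673). Xcr1 and Cadm1, defining markers of that cell, lay at the floor, at 0.40 ± 0.14 and 0.88 ± 0.14 in control and at 0.53 ± 0.18 and 0.93 ± 0.20 with the mimic. Irf8, the other partner, had a log2 fold change of -0.40 and did not pass (adjusted p = 0.225); it was chosen after its values were seen.

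Interferon-induced genes were higher, as was the mean of the interferon-inducible Batf2. Of 22 measured 16 rose and 0 fell (20 higher and 0 lower at an unadjusted p under 0.05, limma), their median log2 fold change was 1.12, and they had a summed linear level of 2046 to 3125 on the control arrays and 5613 to 5940 on the mimic arrays. The largest rises, in Cxcl10, Ifit2, Rsad2 and Ifit3, had log2 fold changes of 2.34, 2.33, 2.33 and 2.14, against 0.42 for Batf2. On control arrays 1, 2 and 3 the summed level was 2046, 2770 and 3125, whereas Batf2 read 3.32, 3.15 and 3.07, the opposite order. The part of the interferon response in the values of Batf2 was not tested.

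**Figure D4:**
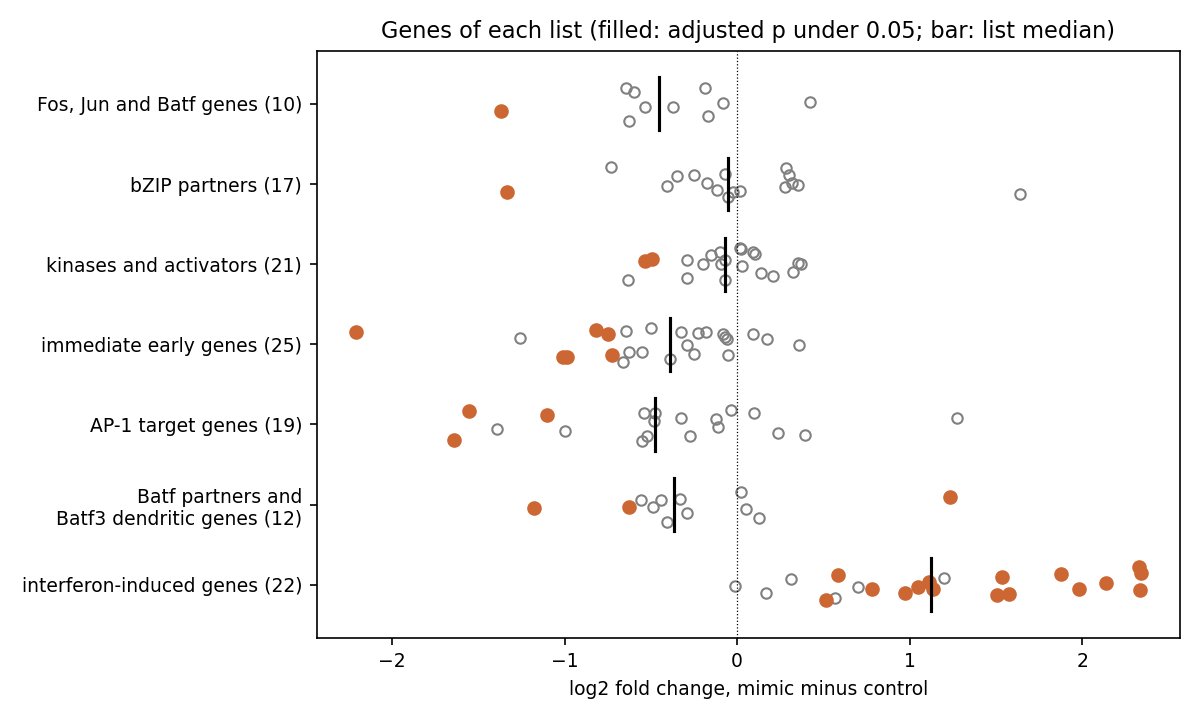
Log2 fold change, mimic minus control, of each measured gene in the 10 studied genes and the 6 lists (number of genes in brackets), filled where the adjusted p was under 0.05, with a bar at each list's median and points spread vertically for legibility. The medians of the studied genes, the immediate early genes and the AP-1 targets lie at -0.45, -0.39 and -0.48, and that of the interferon-induced genes at 1.12.

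The genes whose pattern over the 6 arrays was most like that of Jun, among 2302 genes of a mean log2 of at least 6, were Birc3, an apoptosis inhibitor gene (Pearson r = 0.978), Tnks2, which encodes tankyrase 2 (r = 0.975), and Sirpa, an inhibitory receptor of myeloid cells (r = 0.975). These correlations describe 6 arrays that share the same 2 groups. All 3 genes were lower on every mimic array than on every control array. They were picked for likeness to Jun, whose groups lay apart in that direction, so this largely follows from the choice. None passed the test (adjusted p = 0.0636, 0.336 and 0.172 by limma).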

How the data were processed

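The deposited values are log2 expression, 1 for each probe set on each array. RMA and affy are named for the authors' processing, without a version, in the submitters' processing notes. Nothing used here states the centring, the floor or any filter. Values run from -0.39 to 12.29, and 52.6% lie below 1. They were used as deposited.

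Of 45101 probe sets, 34945 have 1 gene symbol in the platform annotation. Symbols were updated to RefSeq names through gene identifiers, which matched 34741. Each of 18193 genes was represented by its probe set with the highest mean. Groups came from the labels' treatment field and array numbers from the titles. The main test was limma 3.58.1 under R 4.3.3, run two-sided without covariates through lmFit and eBayes, with Benjamini-Hochberg adjustment over all genes and a threshold of 0.05. The SE of a difference had a median of 0.12 (log2) over genes.

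The studied genes, the 6 pathway lists and the marker lists (210 entries) were chosen with earlier results of these data known. Zbtb46, Flt3 and Clec10a stand in both the dendritic marker list and the Batf list. Named by rule were all members, up to 4 passing genes with the largest change from each pathway list, and the 3 genes most correlated with each passing member. Maf, Jdp2, Mapk8, Mmp13, Irf8, Xcr1, Cadm1 and the single genes of the marker lists were named outside that rule.

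The test was tried on simulated data with the means and spreads of the 18193 genes compared between mimic and control. It recovered 23.8%, 78.5% and 96.3% of genes shifted by 0.5, 1 and 2 on the log2 scale. Noise was drawn independently for each gene and array, so differences that many genes share on an array were not simulated. The shifted genes were drawn only from those with a mean log2 of at least 3. These shares therefore do not cover dimmer genes, among them Fosb and Fosl1. Alternatives were the array number as a block, omission of single arrays, dim-gene filters, averaged or all probe sets, 2 scalings and 2 variance models.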

Additional observations from a re-analysis of the deposited data

How the results depend on the processing

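Every member kept its direction under each alternative run, except Fos, which turned to 4.176e-04 without mimic array 2 (limma, adjusted p = 1) and ran down to -0.14 with other arrays left out. With single arrays left out, the members that fell ranged from 0 to 1 and all genes passing from 0 to 165 higher and from 0 to 248 lower. The number of members that fell was 0 with probe sets averaged or all fitted (limma), 2 with a trended robust variance (Jun and Jund) and 3 with array weights (Jun, Junb and Jund), where 1 rose (Batf2). With only genes of a mean log2 of at least 5 tested, 1 fell (Jund), since Jun lies below that level. Jun passed in 7 of its 14 alternatives, with log2 fold changes from -1.62 to -0.74. All genes passing numbered 213 higher and 290 lower in the main comparison, 322 and 290 with quantile normalisation, 320 and 429 with a trended robust variance, and 456 and 591 with array weights. With single arrays left out, the number of genes that passed reached 0 in each of the 6 pathway lists in at least 1 case.

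The array numbers were not taken as pairs, since deviations from the group means correlated at -0.10, 0.25 and -0.19 for numbers 1, 2 and 3 and 2 of 6 arrays correlated best with their own number. With the replicate number as a block 126 genes were higher and 188 lower, and Jun still fell (limma, adjusted p = 0.0227). A dim level limits Fosb, Fosl1 and the second probe sets of Fosl2 and Jund.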
